A study of Mus musculus with 26 samples.

Results

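Mesothelial genes were measured in whole lungs of mice that had received multiwalled carbon nanotubes. The set holds 9 listed genes: Msln, Muc16, Upk3b, Upk1b, Lrrn4, Gpm6a, Cldn15, Wt1 and Bnc1. A probe belonged to a gene when its RefSeq accession matched that gene. Of the 9 genes, 8 had a probe, 1 each, and these 8 were all among the 22950 features tested. No probe was matched to Muc16, which is not analysed here.

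The animals were MutaMouse, a transgenic strain with a reporter for counting mutations, about 12 weeks of age. Exposed mice received NM 401 or Mitsui XNRi-7, both multiwalled carbon nanotubes, in mouse serum by intratracheal instillation, with 4 weekly doses of 42.7 µg per mouse (low) or 128 µg per mouse (high). Lungs were taken 56 days after the last dose, and RNA came from random sections of the organ. The 5 groups, control, NM 401 low, NM 401 high, Mitsui low and Mitsui high, held 5 animals each. Whether each stated dose was given at every instillation or summed over them is not stated. The controls appear once as vehicle controls and once as mice gavaged with olive oil, which leaves their treatment uncertain. The sex is female in the sample labels and male in the study design. Because random sections were used, how much lung surface each RNA sample contained is not recorded in the labels.

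The mesothelium is the single layer of flat cells that covers the lung and lines the chest wall, and it secretes the fluid and glycoproteins that let both surfaces slide. Long, stiff nanotubes and asbestos fibres are known to reach this layer, which is the tissue of origin of mesothelioma. Mesothelin, encoded by Msln, is a surface glycoprotein that binds the mucin encoded by Muc16, and Wt1 is a zinc finger transcription factor used in pathology to recognise mesothelial cells. Mesothelial cells are a small share of the cells of a lung, and in bulk RNA fewer cells of a type and less RNA per cell cannot be told apart.

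The 250 bases upstream of the annotated start are shown for the 4 genes in which a script found the TEAD core letters, because TEAD factors and their partners Yap1 and Taz are measured further on. Windows were examined for Upk3b, Lrrn4, Bnc1, Muc16, Cldn15 and Gpm6a, and none for Msln, Upk1b or Wt1. Sequences come from RefSeq on GRCm38.p6 and are written 5′ to 3′ on the strand of the gene. Upk3b is at chr5:136038246-136038495 on the plus strand, Lrrn4 at chr2:132880863-132881112 on the minus strand (before a start that lies inside the gene's annotated span and not at its outer 5′ end), Cldn15 at chr5:136967619-136967868 on the plus strand and Gpm6a at chr8:54779184-54779433 on the plus strand. Capitals mark GGAATG, or the same letters read on the other strand.
Upk3b: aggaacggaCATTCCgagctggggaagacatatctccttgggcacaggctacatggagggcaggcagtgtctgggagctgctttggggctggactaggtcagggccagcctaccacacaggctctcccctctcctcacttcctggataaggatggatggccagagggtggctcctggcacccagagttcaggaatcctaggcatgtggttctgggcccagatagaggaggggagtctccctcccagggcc
Lrrn4: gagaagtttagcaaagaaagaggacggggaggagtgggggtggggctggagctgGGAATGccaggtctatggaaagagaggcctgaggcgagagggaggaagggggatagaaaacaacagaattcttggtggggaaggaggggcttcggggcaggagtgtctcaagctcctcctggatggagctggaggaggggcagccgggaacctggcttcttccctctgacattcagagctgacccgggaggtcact
Cldn15: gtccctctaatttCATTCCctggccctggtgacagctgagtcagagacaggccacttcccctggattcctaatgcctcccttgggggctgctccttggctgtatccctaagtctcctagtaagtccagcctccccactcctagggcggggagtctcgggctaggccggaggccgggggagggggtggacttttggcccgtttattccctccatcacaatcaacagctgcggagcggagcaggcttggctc
Gpm6a: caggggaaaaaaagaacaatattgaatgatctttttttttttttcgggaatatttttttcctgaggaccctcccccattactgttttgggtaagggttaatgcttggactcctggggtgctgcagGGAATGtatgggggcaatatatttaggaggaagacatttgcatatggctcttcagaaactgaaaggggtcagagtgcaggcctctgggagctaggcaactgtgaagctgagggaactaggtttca
Each of these windows held 1 match, in forward orientation in Lrrn4 and Gpm6a and in reverse in Upk3b and Cldn15. GGAATG was present in 12.6% of the 32851 upstream windows of the same length, counting both strands. It was not found in the windows of Bnc1, Muc16 or a second Gpm6a start. The letters GCGNGGGNG, bound by WT1-type zinc fingers, were found 3 times upstream of Bnc1, whose window is 83.6% G and C, and in no other window examined for these genes, against 10.5% of all windows. The GATA letters AGATAA were found in none of the windows examined, against 9.99% of all windows. The letters were chosen with the expression values known, and a match describes the sequence and shows neither binding nor a cause.

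Each value below is a log2 ratio of the animal's lung RNA, labelled with Cy5, over a universal mouse reference RNA, labelled with Cy3. A ratio depends on the reference as well as the lung, so levels are compared between groups for 1 gene and not between genes. There were 26 arrays for 25 animals, placed on 4 slides: RNA of Mitsui low animal 5 was run once on slide 3 and once on slide 4, and these arrays were averaged. Between 47.2% and 63.2% of spots per array were well above background in Cy5. The 8 genes were well above background in 25 of 25 animals, except Bnc1 in 24, and none was saturated. Precision is limited by having 5 animals per group. NM 401 high had no array on slide 2, and the only control on slide 4 was control 4. An effect of slide was detected by limma's F test in 6392 of 22950 features (27.9%), and in none of the 8 genes (adjusted p = 0.109 to 0.900). In that test the unadjusted p was 0.043 for Bnc1, 0.062 for Msln and 0.084 for Wt1, and 0.228 to 0.870 for the other genes. The 8 genes were therefore not shown to be free of a slide effect. With slide as a block, the differences of Msln and Wt1 between the NM 401 doses moved, as given below.

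At the high dose of NM 401, 4 of the 8 mesothelial genes fell: Gpm6a, Upk1b, Upk3b and Lrrn4, by 0.76 to 1.16 on the log2 scale. At the high dose of Mitsui XNRi-7, 3 fell: Gpm6a, Lrrn4 and Upk1b, by 0.67 to 0.83. Gpm6a alone was called at the low dose of NM 401, and no gene of the set at the low dose of Mitsui XNRi-7. None of the 8 was called higher in any of the 9 comparisons, though with the replicate number as a block Msln was called higher with Mitsui low (0.52, limma adjusted p = 0.0493). Called means a Benjamini-Hochberg adjusted p under 0.05 over all 22950 features in limma. Of all features, 16.4% were called lower and 18.4% higher with NM 401 high, 11% and 12.7% with Mitsui high, 8% and 8.95% with NM 401 low, and 10.4% and 10.6% with Mitsui low. At an unadjusted p under 0.05, Gpm6a was lower and Msln higher with Mitsui low, against 16.5% of all features lower and 16% higher. The median change of the 8 genes was -0.62 with NM 401 high and -0.53 with Mitsui high. It was -0.24 with NM 401 low and -0.04 with Mitsui low. Over all features the median was -0.00 in each, which follows from the loess normalisation, as that centres every array near 0. Leaving out 1 animal moved the median of the 8 from -0.41 (without control 4) to -0.10 (without control 1) with NM 401 low, control 2 also moving it over 1.5 times. With Mitsui low it went from -0.20 (without control 4) to 0.10 (without control 1) and was also above 0 without control 2, Mitsui low 3 or Mitsui low 4, so it has no settled direction. The 4 exposed groups share the same 5 controls, so these comparisons are not independent of each other. Nor are the 8 genes, which varied together between animals of a group, as given below.

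**Figure D1:**
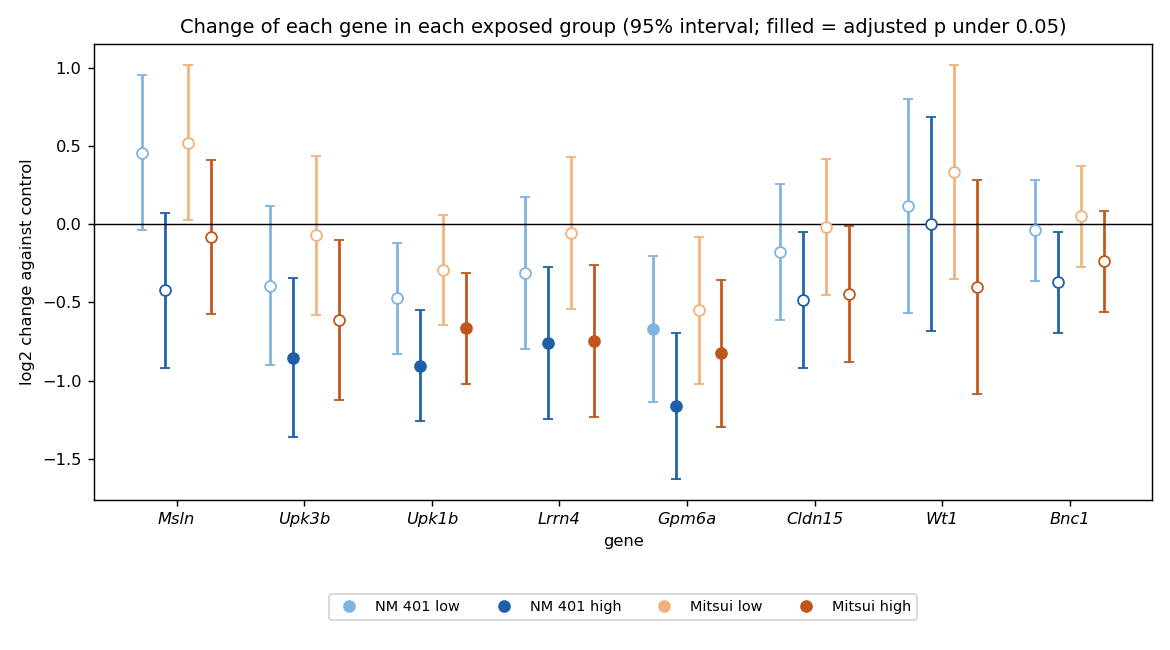
The log2 change against control (vertical axis) is drawn for each of the 8 genes (horizontal axis) in the 4 exposed groups, with the 95% interval from limma and filled points where the adjusted p was under 0.05. Gpm6a, Upk1b and Lrrn4 are filled at both high doses, from -1.16 to -0.67, while Msln lies above 0 at both low doses.

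Msln (chr17:25748613-25754378) encodes mesothelin, the surface partner of the mucin Muc16. Its log2 ratio in control animals 1 to 5 was 0.50, 0.42, -0.04, -0.81 and -0.06. With NM 401 low it was 0.89, 0.43, 0.24, 0.55 and 0.20, and with NM 401 high 0.20, -0.49, -0.88, -0.38 and -0.55. Every low-dose animal lay above every high-dose animal, though the lowest low-dose animal at 0.198 and the highest high-dose animal at 0.197 nearly met. The controls overlapped both groups. They spanned most of the high-dose range, while NM 401 low animals 1 and 4 lay above every control. Such a separation, lower at the high dose, was seen in 1.32% of all features. With Mitsui low it was 0.91, 0.87, -0.00, 0.70 and 0.14, and with Mitsui high 0.12, -0.08, -0.06, 0.33 and -0.70. Here too the low-dose group was the higher, but the groups overlapped.

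Msln was the only gene of the set called between doses. It fell by 0.88 from NM 401 low to NM 401 high (95% interval -1.38 to -0.39, limma adjusted p = 0.0386, n = 5 per group), to a mean of -0.42 ± 0.39 (SD) from 0.46 ± 0.28. Of all features, 1.15% were called lower in that comparison. The call ended under 6 settings. The difference shrank to -0.34 with median centring and -0.68 with slide as a block and was -1.17 with array column as a block (adjusted p = 0.621, 0.0775 and 0.0863). It stayed at -0.88 without the filter, in a fit of only the groups compared and with limma's trend and robust moderation, where the adjusted p was 0.0528, 0.0658 and 0.0505. The call also ended in 7 of 25 fits that left out 1 animal: those without each of NM 401 low animals 1, 2 and 4 and NM 401 high animals 2, 3, 4 and 5, with -0.89 to -0.77 and adjusted p from 0.0508 to 0.122. From Mitsui low to Mitsui high Msln differed by -0.60 ± 0.24 (SE, adjusted p = 0.771). Against control, the low doses gave 0.46 ± 0.24 with NM 401 (adjusted p = 0.207) and 0.52 ± 0.24 with Mitsui (adjusted p = 0.129), neither called. The high doses gave -0.42 ± 0.24 with NM 401 (limma adjusted p = 0.186) and -0.08 ± 0.24 with Mitsui (adjusted p = 0.854), also not called. Within slides Msln with NM 401 high was below control on 1 of 3 slides, with differences from -0.91 to 0.34.

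**Figure D2:**
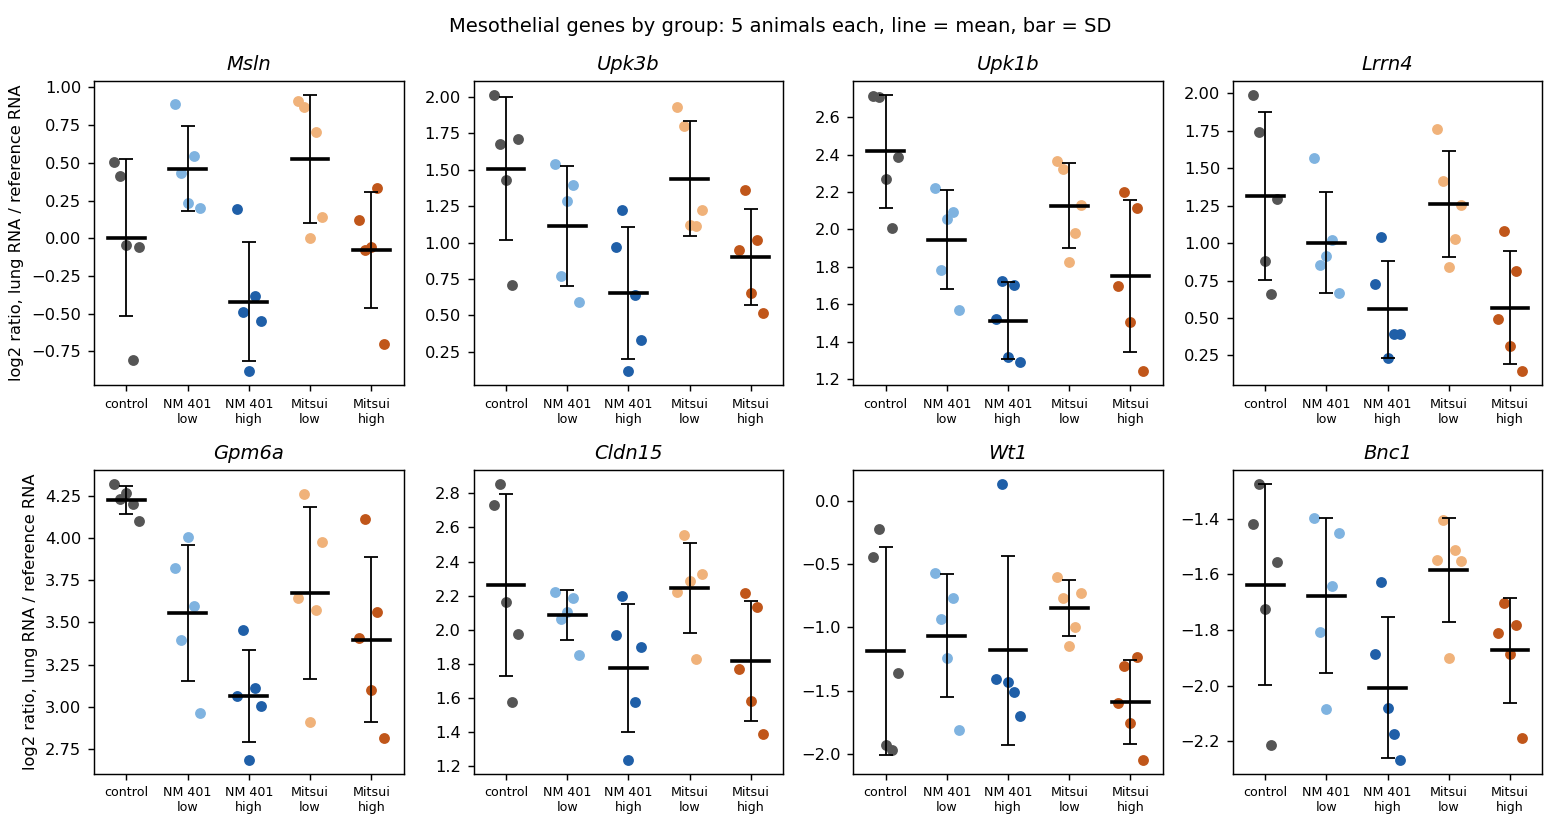
Each panel shows 1 gene, with the log2 ratio of lung over reference RNA (vertical axis) for the 5 animals of each group (points), the group mean (line) and SD (bar), and vertical scales that differ between panels. Gpm6a control animals lie between 4.10 and 4.32, above all NM 401 animals, while for the other 7 genes control 4 lies among exposed animals.

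Uroplakins are membrane proteins named for the bladder lining, and Upk3b and Upk1b are also expressed in mesothelium. Upk3b (chr5:136038496-136044993) stood at 2.02, 1.68, 1.43, 0.71 and 1.71 in control animals 1 to 5. With NM 401 high its values were 0.97, 1.22, 0.11, 0.64 and 0.33, and with NM 401 low 1.54, 0.77, 1.29, 1.40 and 0.59. All 5 high-dose animals lay below 4 of the controls, and control 4 lay among them. Mitsui low gave 1.93, 1.80, 1.12, 1.11 and 1.22, and Mitsui high 0.95, 1.36, 0.65, 1.02 and 0.52. The Mitsui low animals lay inside the range of the controls, and the Mitsui high animals lay in its lower part or under it. Upk3b fell 1.81-fold with NM 401 high (log2 -0.85 ± 0.25, SE, 95% interval -1.36 to -0.34, limma adjusted p = 0.00888), from a mean of 1.51 ± 0.49 (SD) to 0.65 ± 0.45. Within the 3 slides that held both groups the difference was -1.19 to -0.22. With Mitsui high the difference was -0.61 ± 0.25 (adjusted p = 0.0753), called without control 4 or Mitsui high 2 and with the replicate number as a block. With NM 401 low it was -0.39 ± 0.25 (adjusted p = 0.309) and with Mitsui low -0.07 ± 0.25 (adjusted p = 0.883).

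Upk1b (chr16:38773182-38800203), a tetraspanin, was read on 10 spots per array that were averaged. Control values were 2.71, 2.71, 2.27, 2.01 and 2.39, and NM 401 high values 1.52, 1.73, 1.32, 1.70 and 1.29. These groups did not overlap, the lowest control lying above the highest exposed animal, as for Gpm6a below and for 10.5% of all features. NM 401 low gave 2.22, 1.78, 2.05, 2.10 and 1.57, Mitsui low 2.37, 2.32, 1.83, 1.98 and 2.13, and Mitsui high 1.70, 2.20, 1.51, 2.11 and 1.24. Each of these 3 groups overlapped the controls. Upk1b fell 1.87-fold with NM 401 high (log2 -0.90 ± 0.17, SE, 95% interval -1.26 to -0.55, limma adjusted p = 0.000207), and within slides by -1.03 to -0.51. It fell 1.59-fold with Mitsui high (-0.67 ± 0.17, 95% interval -1.02 to -0.31, adjusted p = 0.00593), where the within-slide difference was below 0 on 3 of 4 slides and 0.19 on slide 4. The low doses gave -0.47 ± 0.17 with NM 401 (adjusted p = 0.0601) and -0.29 ± 0.17 with Mitsui (adjusted p = 0.252). The former was called without control 4, NM 401 low 1, Mitsui high 2 or Mitsui high 5 (adjusted p = 0.0301 to 0.0465). It was also called with the Feature Extraction ratios or the replicate number as a block (limma adjusted p = 0.0439 and 0.0307).

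Lrrn4 (chr2:132866686-132894010) encodes a membrane protein with leucine-rich repeats. Its values in control animals 1 to 5 were 1.99, 1.74, 0.88, 0.66 and 1.30. NM 401 high animals had 0.73, 1.04, 0.23, 0.39 and 0.39, and Mitsui high animals 0.49, 1.08, 0.31, 0.81 and 0.14. Control animals 3 and 4 lay within the range of both high-dose groups, and the other 3 controls above it. NM 401 low animals had 1.57, 0.85, 0.91, 1.02 and 0.67, and Mitsui low animals 1.76, 1.42, 0.84, 1.03 and 1.25, all within the range of the controls. Lrrn4 fell 1.69-fold with NM 401 high (log2 -0.76 ± 0.24, SE, limma adjusted p = 0.0145) and 1.68-fold with Mitsui high (-0.74 ± 0.24, adjusted p = 0.0233). Within slides it was lower on 3 of 3 for NM 401 high (-1.01 to -0.15) and on 3 of 4 for Mitsui high (-1.50 to 0.42). The call with NM 401 high was lost without control 1, and that with Mitsui high without control 1, control 2, Mitsui high 3 or Mitsui high 5 and in a fit of only the groups compared. At the low doses Lrrn4 differed by -0.31 ± 0.24 with NM 401 (limma adjusted p = 0.418) and -0.05 ± 0.24 with Mitsui (adjusted p = 0.910), neither called.

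Gpm6a (chr8:54779434-55060878), a membrane glycoprotein that is also abundant in neurons, showed the largest change among the 8 genes in all 4 exposed groups. Its control values were 4.32, 4.23, 4.27, 4.20 and 4.10, a spread of 0.08 (SD). NM 401 high animals had 3.07, 3.45, 2.69, 3.11 and 3.00, and NM 401 low animals 3.82, 3.40, 4.00, 3.60 and 2.96. All 10 animals given NM 401 lay below all 5 controls, a separation seen in 5.04% of all features for the low dose. Mitsui low animals had 3.65, 4.26, 2.91, 3.58 and 3.98, and Mitsui high animals 3.41, 4.11, 3.10, 3.56 and 2.82. In each Mitsui group 1 animal, number 2, lay among the controls and the other 4 below them. For Mitsui low animal 5 this holds for the mean of its arrays only. Its value was 3.68 on slide 3 and 4.27 on slide 4, and 4.27 lies among the controls. That gap of 0.59 between arrays of the same RNA is wide beside the control SD of 0.08. Gpm6a fell 2.24-fold with NM 401 high (log2 -1.16 ± 0.23, SE, 95% interval -1.63 to -0.69, limma adjusted p = 0.000287), and the difference was -1.20 to -1.14 within the 3 slides. It fell 1.77-fold with Mitsui high (-0.83 ± 0.23, adjusted p = 0.00930), lower on 4 of 4 slides by -1.40 to -0.09.

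With NM 401 low Gpm6a fell 1.59-fold (-0.67 ± 0.23, adjusted p = 0.0442), and it was lower on 4 of 4 slides. This call was lost under 5 of 14 alternative settings and in 11 of 25 fits that left out 1 animal: those without each of the 5 controls, NM 401 low animals 2, 4 and 5, Mitsui low animals 1 and 4 and Mitsui high animal 1, with -0.70 to -0.52 and adjusted p from 0.0501 to 0.138. With Mitsui low the difference was -0.55 ± 0.23 (adjusted p = 0.0881), and it was called without Mitsui low 2, the animal among the controls (-0.70, adjusted p = 0.0349). Neuron and Schwann cell markers were called lower in 3 of 8 tested and higher in 1 with NM 401 high, with a median change of -0.03.

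Cldn15 (chr5:136967869-136975845) encodes a claudin, a protein of the junctions between epithelial cells. It ranged from 1.58 to 2.86 in controls, from 1.24 to 2.20 with NM 401 high and from 1.39 to 2.22 with Mitsui high. Both high-dose groups overlapped the controls at their upper end. The differences were -0.49 ± 0.21 (SE, limma adjusted p = 0.0785) and -0.44 ± 0.21 (adjusted p = 0.135), neither called. With NM 401 high Cldn15 was called with the Feature Extraction ratios, the array column as a block or the replicate number as a block (limma adjusted p = 0.0430, 0.0302 and 0.0393). The other processing settings did not call it. With NM 401 low and Mitsui low they were -0.18 ± 0.21 and -0.02 ± 0.21 (adjusted p = 0.640 and 0.968).

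Wt1 (chr2:105126529-105173614) was the most variable gene of the set. Control values were -0.44, -0.22, -1.93, -1.97 and -1.36, a mean of -1.18 ± 0.82 (SD). NM 401 high animals had -1.41, 0.13, -1.43, -1.51 and -1.69, and NM 401 low animals -0.57, -0.93, -1.24, -0.77 and -1.81. The controls spanned nearly the whole range, and NM 401 high animal 2 lay above every other animal of the study. Mitsui low animals had -0.60, -0.77, -1.15, -0.997 and -0.73, and Mitsui high animals -1.60, -1.31, -1.75, -1.23 and -2.04. The Mitsui groups did not overlap, all 5 low-dose animals being higher, which 0.379% of all features also showed. Wt1 was not called in any comparison. Against control the difference was 0.00 with NM 401 high (95% interval -0.68 to 0.69, limma adjusted p = 0.997), 0.12 with NM 401 low, 0.34 with Mitsui low and -0.40 with Mitsui high, each with an SE of 0.33. Without NM 401 high animal 2 the first of these was -0.33.

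Bnc1 (chr7:81966657-81992299), which encodes the zinc finger protein basonuclin, had log2 ratios of -2.21 to -1.27 in controls, -2.27 to -1.63 with NM 401 high and -2.19 to -1.70 with Mitsui high. The groups overlapped widely. Differences from control were -0.37 ± 0.16 (SE, limma adjusted p = 0.0700) with NM 401 high, -0.24 ± 0.16 (adjusted p = 0.301) with Mitsui high, -0.04 ± 0.16 (adjusted p = 0.909) with NM 401 low and 0.05 ± 0.16 (adjusted p = 0.858) with Mitsui low. With NM 401 high Bnc1 was called with no background correction, the authors' deposited matrix or the replicate number as a block (limma adjusted p = 0.0476, 0.0310 and 0.0427). The other processing settings did not call it.

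Control 4, in which all 8 genes lay below the control mean, moved the counts of calls more than any other animal. Without it 7 of 8 genes were called lower with NM 401 high, adding Bnc1 at -0.51, Msln at -0.63 and Cldn15 at -0.66, and 5 with Mitsui high, adding Cldn15 at -0.62 and Upk3b at -0.81. Without NM 401 high 2, Bnc1 and Cldn15 were also called with NM 401 high. Leaving out any animal but control 4 gave 3 to 6 calls with NM 401 high and 2 to 4 with Mitsui high. Under median centring of the arrays in place of loess, no gene of the set was called in any comparison, and 1064 of 22950 features were called with NM 401 high against 7976. That setting also moved the median of all features by 0.17 with NM 401 high and by -0.13 with Mitsui high. Relative to that shift the median of the 8 genes was -0.60 and -0.53.

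Between doses of 1 material, all 8 genes had a lower mean at the high dose than at the low dose with both nanotubes, which 23.6% of all features did. With NM 401 the median difference was -0.44, from -0.88 for Msln to -0.12 for Wt1. With Mitsui XNRi-7 it was -0.48, from -0.74 for Wt1 to -0.27 for Gpm6a. None of the 8 was called between the Mitsui doses in limma, where no feature of the 22950 was called at all. At an unadjusted p under 0.05, 5 of the 8 were lower at the high Mitsui dose (Lrrn4, Msln, Wt1, Upk3b and Upk1b), as were 1.93% of all features. At the same unadjusted p, 4 of 8 were lower at the high NM 401 dose, against 7.82% of all features. The direction of Wt1 between the NM 401 doses turned under median centring and with slide as a block. The high and low groups of a material share no animals, but each gene's 5 groups share 1 estimate of spread. Within groups the 8 genes varied together between animals (median Pearson r of 0.71). Counts out of 8 are therefore not counts of independent results, and the shares of all features are no test of them.

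Between materials at the same dose none of the 8 genes was called in limma. Of all features, 0% were called lower at the low dose and 0.331% at the high dose. None of the 8 had an unadjusted p under 0.05 either, against 2.5% and 7.91% of all features in the lower direction. NM 401 low minus Mitsui low ranged from -0.32 for Upk3b to -0.06 for Msln. NM 401 high minus Mitsui high ranged from -0.34 for Msln to 0.40 for Wt1, and Gpm6a differed by -0.33 with a 95% interval of -0.80 to 0.13. These intervals allow differences in either direction, so the materials were not shown to act alike. The step from low to high dose did not differ between the materials for any of the 8 at an unadjusted p under 0.05 (6.04% of all features in the lower direction), with a median difference of 0.02 (-0.09 to 0.12 without 1 animal). Of all features 0.0305% were called.

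Within groups the 8 genes varied more than most features. Their residual SD between animals was 0.26 (Bnc1) to 0.57 (Wt1), at the 87.2 to 98.4 percentile of all features, whose median was 0.15. The animal hybridised on both slide 3 and slide 4 gives a measure of the array itself: its values differed by 0.04 for Lrrn4, 0.22 for Upk3b, 0.22 for Wt1, -0.30 for Msln, 0.31 for Cldn15, 0.38 for Upk1b, -0.48 for Bnc1 and 0.59 for Gpm6a (slide 4 minus slide 3). The median size of this difference over all features was 0.17. For Upk1b, Bnc1 and Gpm6a this difference was a larger number than the residual SD between animals, and for the other 5 a smaller one. A difference between arrays and an SD are not on the same scale, and the residual SD also holds variation between arrays. The repeat covers only Mitsui low animal 5, so it does not show which spread is the larger.

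**Figure D3:**
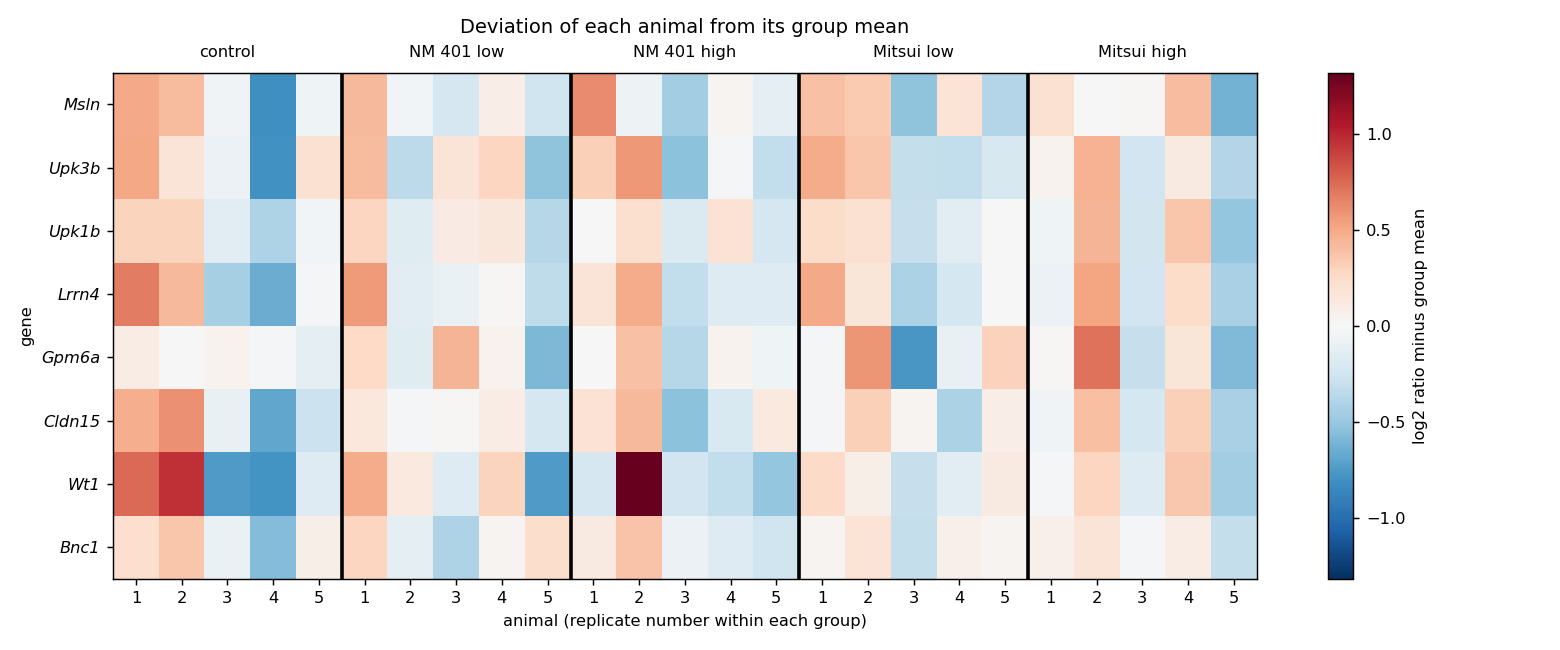
Colours show each animal's log2 ratio minus its group mean for the 8 genes (rows), with the 25 animals in columns by group and replicate number. Control 1 and control 2 lie above and control 4 below their group mean for nearly every gene, and Gpm6a in controls stays near 0.

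The genes rose and fell together from animal to animal within groups. All 8 lay below the group mean in control 4, NM 401 high 3 and Mitsui high 5, and none did in control 1, control 2, NM 401 low 1, NM 401 low 4, Mitsui low 2 and Mitsui high 4. Among controls the mean over the 8 genes ranged from 0.52 in control 4 to 1.55 in control 1, a wider span than between the control and NM 401 high means. With group means removed, the 28 pairs of genes had a median Pearson r of 0.71 over 25 animals, from 0.32 (Bnc1 and Gpm6a) to 0.88 (Upk3b and Lrrn4). By permutation of animals within groups (100000 resamples, two-sided), 27 of 28 pairs had an adjusted p under 0.05 for Pearson's r and 26 for Spearman's rho. For Upk3b and Lrrn4, r was 0.88 and rho 0.87, each with p = 1e-05, the smallest these permutations can give, and an adjusted p of 5.6e-05, and r was 0.86 without the 2 animals farthest from the median. For Bnc1 and Gpm6a, r was 0.32 (permutation p = 0.083, adjusted p = 0.083) and rho 0.36 (permutation p = 0.09, adjusted p = 0.09). All genes of an animal share its array, so effects of the array and of the tissue piece cannot be told apart here.

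**Figure D4:**
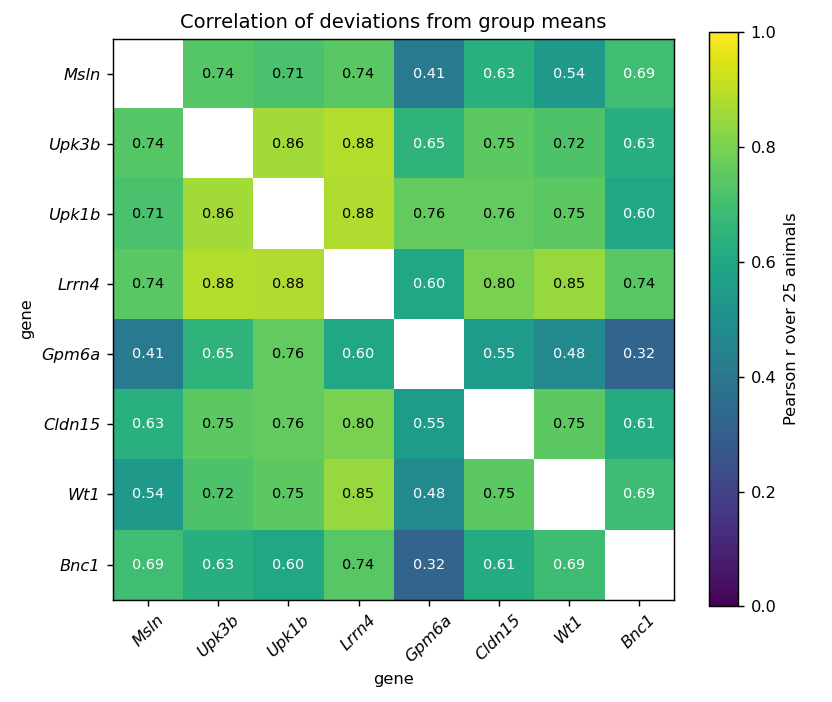
Each cell gives Pearson's r between the deviations of 2 genes from their group means over 25 animals. Upk3b, Upk1b and Lrrn4 are joined by r from 0.86 to 0.88, and the lowest values, 0.32 to 0.48, all involve Gpm6a.

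The relation also held within slides. The median r over the 28 pairs was 0.85 on slide 1 (8 animals), 0.81 on slide 2 (6 animals) and 0.65 on slide 3 (6 animals), where 1 pair, Bnc1 and Gpm6a, was below 0. Slide 4 held 5 animals, fewer than the 6 set as a minimum for a correlation, and no value is given for it. With slide means removed as well as group means, 28 of 28 pairs passed, with a median r of 0.78. Values from the authors' deposited matrix gave a median r of 0.74. Leaving out the 2 farthest animals for each pair gave 26 pairs and a median r of 0.65.

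The features whose deviations most resembled the mean of the 8 genes were P3h4 (Pearson r = 0.93 over 25 animals), Sfrp2 (0.89), Crb2 (0.88), Sbsn (0.88), Nkain4 (0.87), Aldh1a2 (0.86), Ephb6 (0.85), Rspo1 (0.84), Mst1r (0.82) and Chst4 (0.81). These 10 were all that exceeded 0.8 among 14830 features with a symbol, and the median was -0.00. Nkain4, Aldh1a2 and Rspo1 are on the list of further mesothelial genes. On log2 ratios that keep the group differences, the highest were P3h4 (0.94), Rspo1 (0.90), Sbsn (0.87), Aldh1a2 (0.86) and Nkain4 (0.86). Likeness between animals did not fix the change with exposure: P3h4 changed by -0.35 ± 0.09 (SE, limma adjusted p = 0.00293) and Nkain4 by -0.96 ± 0.18 (adjusted p = 0.000189) with NM 401 high, but Sfrp2, an inhibitor of Wnt signalling, by 0.07 ± 0.23 (adjusted p = 0.858) and Mst1r by 0.13 ± 0.14 (adjusted p = 0.540).

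A longer list of 24 genes known from mesothelium, of which 19 were tested, moved in both directions. With NM 401 high 5 fell and 5 rose, with a median of -0.05, against 16.4% of all features lower and 18.4% higher. Those that fell were Igfbp6, which binds insulin-like growth factors (-1.32 ± 0.19, SE, limma adjusted p = 8.6e-06), Nkain4, Ptgis, the prostacyclin synthase gene (-0.79), Rspo1, a Wnt enhancer (-0.63), and Cdh11, a cadherin of mesenchymal cells (-0.42). Those that rose were Slpi, a secreted antiprotease (1.85 ± 0.18, adjusted p = 4.1e-08), Tgm1, a transglutaminase (1.59), Anxa8 (0.65), Krt8 (0.47) and Pdpn (0.45). With Mitsui high 4 fell and 3 rose, with NM 401 low 2 each, and with Mitsui low 2 fell and 4 rose. The deviations of Nkain4, Rspo1, Ptgis and Igfbp6 followed the 8 genes between animals (r = 0.87, 0.84, 0.78 and 0.76) and that of Cdh11 less closely (0.33). Those of the 5 rising genes lay between -0.47 (Pdpn) and 0.12 (Anxa8). Slpi and the keratins are also made by airway epithelium, and Pdpn by alveolar type 1 cells. Which cells the falling and the rising genes were expressed in was not tested.

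**Figure D5:**
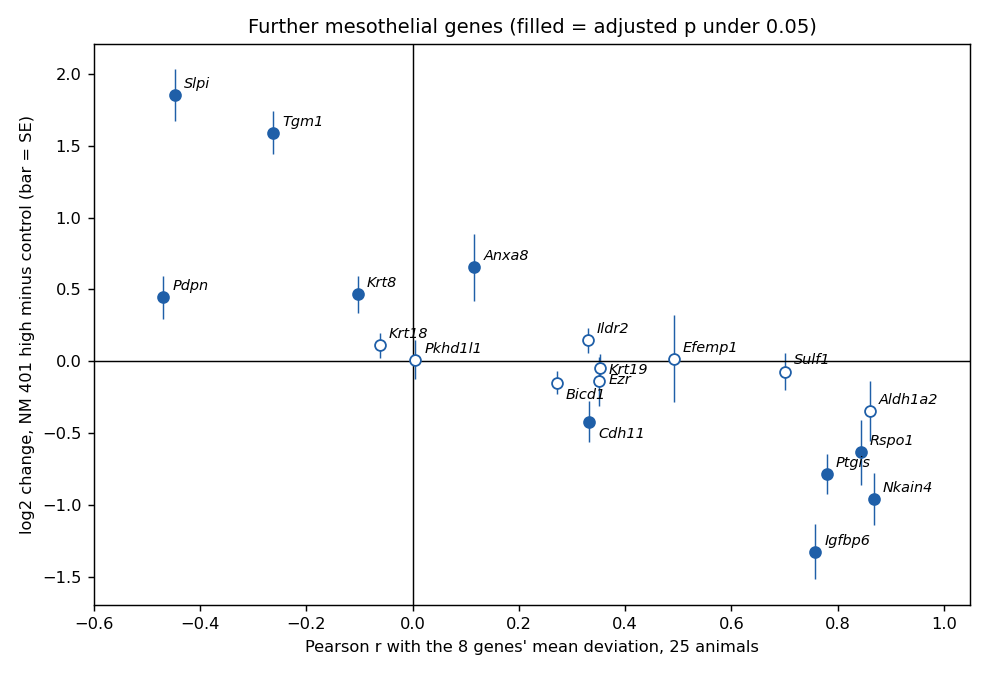
For 19 further mesothelial genes the change with NM 401 high against control (vertical axis, log2, bar = SE) is plotted against Pearson's r with the mean deviation of the 8 genes over 25 animals (horizontal axis). The called falls lie at r of 0.33 to 0.87 and the called rises at r of -0.47 to 0.12.

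Among the other 4 uroplakin genes, Upk3a rose by 1.60 ± 0.28 and Upk3bl by 1.03 ± 0.18 with NM 401 high, and Upk1a fell by 1.28 ± 0.15 (SE, limma adjusted p = 0.000106, 8.8e-05 and 3.5e-07), while Upk2 was at -0.03 and not called. Upk3a and Upk1a were called in the same direction in each of the 4 exposed groups. Their deviations did not follow those of Upk3b and the other 7 genes (r = -0.02 for Upk3a, 0.18 for Upk3bl and 0.12 for Upk1a).

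Of 15 tested genes of the Hippo pathway and of tumour suppressors mutated in mesothelioma, none was called higher in any exposed group. With NM 401 high 9 fell, with a median of -0.33, with Mitsui low 8, with Mitsui high 7 and with NM 401 low 4. The transcription factor gene Tead1 fell by 1.06 ± 0.10 (SE, limma adjusted p = 5.2e-08) with NM 401 high, its co-activators Yap1 by 0.65 and Wwtr1, which encodes Taz, by 0.71, the kinase gene Lats2 by 0.88, and the pathway's targets Ccn2 by 0.99 and Ankrd1 by 0.90. Tead1, Yap1, Wwtr1 and Lats2 were called lower in all 4 exposed groups. Nf2, Bap1, Cdkn2a and Trp53, suppressors lost or mutated in mesothelioma, were not called in any of the 4. These genes are expressed in many lung cells, and the list mean correlated with the 8 genes between animals at r = 0.39 (25 animals).

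Of 9 tested genes for hyaluronan and pleural lubrication, 3 rose and 2 fell with NM 401 high. Prg4, the lubricant lubricin, rose by 1.14 ± 0.21, Cd44, a hyaluronan receptor, by 0.98, and Tnfaip6, which modifies hyaluronan, by 0.35, while Lyve1, a receptor of lymphatic vessels and some macrophages, fell by 1.31 and the hyaluronidase gene Hyal2 by 0.77. Has1, a hyaluronan synthase, rose with Mitsui low by 0.96 ± 0.23 (SE, limma adjusted p = 0.00376) and was at -0.03 with NM 401 high, 0.38 with NM 401 low and 0.18 with Mitsui high, where it was not called.

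Markers of other resident lung cells also moved with exposure. Of 11 tested alveolar type 1 markers, 10 fell with NM 401 high and 7 with each of the Mitsui doses, and the list mean was 4.09 to 4.44 in controls, 3.46 to 3.82 with NM 401 high and 3.71 to 4.06 with Mitsui high. Ager was the marker not called with NM 401 high (-0.12). Pdpn, also made by these cells but counted among the further mesothelial genes, rose by 0.45 with NM 401 high. Of 14 fibroblast markers, 7 fell with NM 401 high, and 7 fell and 2 rose with Mitsui high, with a list mean of 2.86 to 2.98 in controls, 2.33 to 2.68 with NM 401 high and 2.48 to 2.73 with Mitsui high. Endothelial markers fell in 7 of 12 with NM 401 high and 3 with Mitsui high. Smooth muscle markers fell in 2 of 7 and ciliated cell markers in 1 of 9 with NM 401 high, and with Mitsui high 4 ciliated markers rose and 1 fell. Adipose markers were called lower in 1 of 6 in each exposed group. Their median change was -0.89 with NM 401 high, -1.24 with Mitsui high, -1.47 with NM 401 low and -1.69 with Mitsui low. The adipose list mean was 1.23 to 4.82 in controls, 0.15 to 4.28 with NM 401 high and 0.82 to 1.38 with Mitsui high. At the low doses it was 0.52 to 1.53 with NM 401 and 0.12 to 1.27 with Mitsui. Cardiac muscle markers had a median change of -1.02 with NM 401 high, with 1 of 9 called lower (Actc1) and a list mean of 1.051 to 3.37 in controls and 0.43 to 2.51 with NM 401 high. Of 6 liver and pancreas markers none was called in the 4 exposed groups.

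Markers of other cell types rose in the same samples. Of 11 macrophage markers, 8 rose and 1 fell with NM 401 high, and 6 rose and 1 fell with Mitsui high. The macrophage list mean was 1.94 to 2.13 in controls, 3.30 to 3.91 with NM 401 high and 3.19 to 3.66 with Mitsui high, with no overlap of either group with the controls. Gpnmb, a membrane glycoprotein, rose by 5.05 and Trem2, a lipid receptor, by 4.65 with NM 401 high. Of 9 club and goblet cell markers, 7 rose and 1 fell with NM 401 high and 6 rose with Mitsui high, and the list mean was 2.25 to 2.72 in controls, 4.21 to 5.37 with NM 401 high and 4.10 to 5.02 with Mitsui high. Clca1, a secreted protein of goblet cells, rose by 7.30 and the mucin gene Muc5b by 3.61 with NM 401 high. Of 6 basal and squamous epithelial markers, 5 rose with NM 401 high and 2 with Mitsui high, among them the keratin gene Krt5 by 2.11 with NM 401 high.

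The list means of these cell types correlated with the 8 mesothelial genes between animals at r = 0.10 (alveolar type 1), 0.45 (fibroblast), 0.25 (endothelial), 0.46 (adipose), 0.15 (cardiac muscle), -0.14 (smooth muscle), 0.04 (ciliated), -0.17 (macrophage), -0.06 (club and goblet) and 0.15 (basal and squamous), against 0.77 for the further mesothelial genes. The part of these cell types, and of the piece of lung sampled, in the falls of the 8 genes was not tested.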

How the data were processed

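The deposited scanner files hold median spot and background intensity, not background subtracted, log10 ratios made by Agilent Feature Extraction 11.0.1.1, and flags of another kind (0 or 1), per the file headers. The authors also deposited a matrix of log2 ratios, whose normalisation is not given in the sources used here. Per the labels, lung RNA carried Cy5 and the reference Cy3 on all arrays.

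In R 4.3.3 with limma 3.58.1, background was removed by normexp (offset 50) and ratios were normalised by loess within arrays, leaving out outlier spots (0.461%). The filter kept 30466 of 55681 probes: those with Cy5 well above background in 4 or more animals of some group. Symbols came from RefSeq or Ensembl identifiers, and the brightest kept probe stood for its gene or, without a symbol, for its identifier. This gave 22950 features, of which 14838 had a symbol. Shares of all features count both kinds. The fit used all 25 animals with a mean for each group, moderated spread (3.76 prior added to 20 residual degrees of freedom) and Benjamini-Hochberg adjustment over all features. The fit was tested on simulated data. Correlations used deviations from group means, with permutation within groups.

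All 8 matched genes were tested in every comparison, and the change of each against control is given for all 4 exposed groups. Between doses and between materials, values are given for some of the 8 only. Of other lists, counts and up to 4 called genes with the largest change in NM 401 high are named (6 for further mesothelial genes), with the 10 features most like the set. Genes named beyond these rules were chosen after their values were seen. The genes, lists and tests were chosen with earlier results of these data known. Replicate numbers did not pair animals: same-numbered animals had a median correlation of -0.00, and 12 of 50 pairs exceeded 0.1. Alternatives covered background correction, normalisation, filter, probe choice, the replicate number, the slide or the array column as a block, which samples were fitted, and leaving out each animal.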

Additional observations from a re-analysis of the deposited data

Results flagged for a closer look

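Wt1 in NM 401 high animal 2 had a log2 ratio of 0.13, while the other 4 animals of that group lay at or below -1.41. The gap to the nearest animal was 0.842 of the group's range, above the critical value of 0.71 for 5 samples. It was the only such value in 40 combinations of gene and group. Chance gives such a value in about 1 of every 20 combinations, so 1 among 40 is not more than chance gives. In the same animal 7 of the 8 genes lay above the group mean. Without it the difference of Wt1 from control was -0.33 instead of 0.00.

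Wt1 lay above the control mean in 5 of 5 Mitsui low animals (mean difference 0.34) and below it in 5 of 5 Mitsui high animals (mean difference -0.40). The difference between these groups was tested directly and was -0.74 ± 0.33 (SE, limma, unadjusted p = 0.0356, adjusted p = 0.874). The control animals themselves ran from -1.97 to -0.22.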

How the results depend on the processing

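Counts of the 8 genes called were recomputed under 14 alternatives and 25 fits without 1 animal. Median centring gave 0 with NM 401 low, NM 401 high and Mitsui high and 0 between the NM 401 doses. The NM 401 low count was also 0 with no background correction, no filter or array column as a block, and 2 with the replicate block, which added Upk1b there (lower) and gave 1 for Mitsui low (Msln, higher). The count between NM 401 doses was also 0 with no filter, slide as a block, array column as a block, only the groups compared, and limma's trend with robust moderation. Leaving out 1 animal gave 0 to 2 (NM 401 low), 3 to 7 (NM 401 high), 0 to 1 (Mitsui low), 2 to 5 (Mitsui high) and 0 to 1 (between NM 401 doses). The 9 called changes kept their sign in all fits, and the other 4 comparisons gave 0 throughout.

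The values that changed sign were all uncalled. Wt1 moved to -0.013 (NM 401 low, median centring), to -0.068 (Feature Extraction ratios), -0.033 (the authors' deposited matrix) and -0.34 (array column block) with NM 401 high, and to 0.24 (median centring) and 0.039 (slide block) between NM 401 doses. With Mitsui low, Bnc1 moved to -0.11 (Feature Extraction ratios) and -0.094 (median centring), Cldn15 to 0.088 and Upk3b to 0.0066 (array column block). Without 1 animal, ranges crossing 0 were, with NM 401 low, -0.18 to 0.063 (Bnc1) and -0.077 to 0.36 (Wt1); with NM 401 high, -0.33 to 0.24 (Wt1); with Mitsui low, -0.091 to 0.14 (Bnc1), -0.19 to 0.13 (Cldn15), -0.22 to 0.12 (Lrrn4) and -0.27 to 0.057 (Upk3b); with Mitsui high, -0.28 to 0.076 (Msln); and between NM 401 doses, -0.45 to 0.011 (Wt1). The cause of these changes was not tested. Mean signals in place of median signals were not run, as only median signals were used here. Settings other than those named kept each count within 1.5 times. The number of animals and a spread between animals above that of most features limit what these data can show for the 8 genes.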

Other observations

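A list of 14 tested genes of the mesothelial to mesenchymal transition did not move one way. With NM 401 high 6 fell and 4 rose, with a median of -0.15. Cdh2, the cadherin that mesothelial cells carry, fell by 1.01 and the repressor gene Zeb1 by 0.97, while the filament gene Vim was higher by 0.68 and Col1a1, a chain of type I collagen, by 0.55. Tagln, a smooth muscle protein, fell by 0.69. The list mean correlated with the 8 mesothelial genes between animals at r = 0.05 (25 animals).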
